A study of Mus musculus with 12 samples.

Results

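The 31 genes described here encode the enzymes of fatty acid oxidation and known targets of the nuclear receptor PPAR alpha. They were taken by gene symbol from the deposited expression table, which lists 34348 genes, and all 31 were found in it. By the known location of their products, 18 members are mitochondrial, 8 are peroxisomal and 5 belong to neither organelle. Each was measured by RNA sequencing of total RNA in 4 groups of 3 libraries, all from C57BL/6 mice. The groups are liver after LCWE, liver after PBS, small intestine after LCWE and small intestine after PBS. No genetic change is labelled. LCWE is the customary name of a Lactobacillus casei cell wall extract, which is injected into mice to produce a vasculitis studied as a model of Kawasaki disease, and PBS is the saline vehicle. The labels give neither dose, time nor age. The authors' differential table heads its LCWE columns LCWECFA, and the sources used here do not explain the added letters.

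PPAR alpha is a lipid-sensing transcription factor that pairs with RXR on DNA and, in fasted liver, raises genes for the uptake, activation and breakdown of fatty acids. Mitochondria take up long chains through the carnitine shuttle and shorten them in a cycle of dehydrogenation, hydration, renewed dehydrogenation and thiolysis, passing electrons to the electron transfer flavoprotein. Peroxisomes run a parallel cycle on very long and unusual chains and hand shortened products on for completion in mitochondria. In mice the peroxisomal genes are among the classical responders to PPAR alpha agonists, and the intestinal epithelium uses the same enzymes on dietary fat.

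The windows around the start sites of 5 members are shown because the results below turn on them. Acot3 and Acot1 are thioesterase genes of the same stretch of chromosome 12 and were both low in LCWE livers, Plin2 had opposite directions in the 2 tissues, and Acaa1a and Acaa1b are a pair of thiolase genes with very different tissue patterns. Each sequence is from RefSeq on GRCm38.p6, the assembly behind mm10, and runs 5′ to 3′ on the gene's own strand from 250 bases before the start to 50 bases after it. Capitals mark the hexamer AGGTCA, the core recognised by PPAR and RXR, on either strand.
Acot3, chr12:84051894-84052193, plus strand: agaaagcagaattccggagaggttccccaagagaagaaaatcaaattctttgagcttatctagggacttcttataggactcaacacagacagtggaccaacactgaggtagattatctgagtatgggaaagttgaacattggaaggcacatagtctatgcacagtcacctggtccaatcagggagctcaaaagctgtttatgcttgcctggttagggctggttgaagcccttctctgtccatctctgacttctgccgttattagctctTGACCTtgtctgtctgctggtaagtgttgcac
Acot1, chr12:84009252-84009551, plus strand: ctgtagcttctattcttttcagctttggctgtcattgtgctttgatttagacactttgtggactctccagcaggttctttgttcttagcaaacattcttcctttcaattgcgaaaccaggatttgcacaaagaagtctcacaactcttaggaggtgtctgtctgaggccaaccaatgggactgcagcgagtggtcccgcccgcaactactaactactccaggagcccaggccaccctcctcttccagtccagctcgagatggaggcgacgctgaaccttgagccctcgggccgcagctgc
Plin2, chr4:86670010-86670309, minus strand: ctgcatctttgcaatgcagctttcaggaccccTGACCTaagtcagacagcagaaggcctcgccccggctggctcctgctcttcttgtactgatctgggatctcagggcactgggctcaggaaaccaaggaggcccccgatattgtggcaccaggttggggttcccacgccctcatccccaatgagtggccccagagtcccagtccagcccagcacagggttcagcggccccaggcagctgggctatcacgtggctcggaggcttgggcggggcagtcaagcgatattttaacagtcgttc
Acaa1a, chr9:119341044-119341343, plus strand: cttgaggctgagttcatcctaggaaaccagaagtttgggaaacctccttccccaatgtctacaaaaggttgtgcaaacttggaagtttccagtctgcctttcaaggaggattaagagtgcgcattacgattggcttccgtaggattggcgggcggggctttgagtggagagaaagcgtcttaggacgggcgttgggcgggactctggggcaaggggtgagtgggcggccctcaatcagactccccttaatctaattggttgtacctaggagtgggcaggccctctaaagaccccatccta
Acaa1b, chr9:119157044-119157343, minus strand: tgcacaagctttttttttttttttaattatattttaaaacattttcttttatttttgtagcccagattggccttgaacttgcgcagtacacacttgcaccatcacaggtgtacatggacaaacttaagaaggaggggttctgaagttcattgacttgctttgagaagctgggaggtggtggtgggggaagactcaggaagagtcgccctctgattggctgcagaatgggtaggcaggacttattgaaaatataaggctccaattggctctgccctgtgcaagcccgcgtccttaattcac
The Acot3 window holds the hexamer, in reverse, just after the start, and the Plin2 window holds it, in reverse, well before the start. The other windows printed hold none. Of the 27 members with a window, 5 contain the hexamer, namely Acadm, Acadvl, Acot3, Cpt1a and Plin2, against 18.1% of 27025 genes. The direct repeat of the hexamer spaced by a single base, AGGTCANAGGTCA, was found in 0 of the 27 members and in 0.0481% of genes. A looser form, AGGNCANAGGNCA, was found in 0 members and 0.451% of genes. Both strands were searched, and every direct repeat of the first form also contains the hexamer and the looser form.

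The liver libraries held 34741958 to 44921885 reads in genes and the intestinal ones 30294594 to 40253006. Values are RPKM, reads per kilobase scaled to a library's total reads in genes, so that levels can be compared between genes. Differences were tested with limma on log2(RPKM + 0.5), over every gene with at least 0.5 RPKM in at least 3 libraries of the fit. A gene is said to have passed at a Benjamini-Hochberg adjusted p below 0.05. Since no label ties the libraries to separate animals, the p-values describe the scatter among these samples, part of which may be technical. Both tissues carried their own markers: Alb, the serum albumin gene of hepatocytes, had 10519 to 13391 RPKM in LCWE livers and 13375 to 23556 RPKM in PBS livers. Fabp2, the fatty acid binding protein of enterocytes, had 3350, 2656 and 676 RPKM in LCWE intestines, against 9408, 9206 and 5747 RPKM in PBS intestines. Some libraries stood apart over the members. In liver, PBS replicate 2 was the highest of the 6 libraries for 17 members and the lowest for 5, and LCWE replicate 1 was the lowest for 15. In the intestine, LCWE replicate 4 was the lowest for 18 of the 31.

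In PBS mice, liver carried more of most members than the small intestine. These PBS libraries are also the controls of the LCWE comparisons below. Of the 31 members, 25 were higher in PBS liver and 2 were lower, whereas over all 17253 genes tested 16.9% were higher in PBS liver and 60.7% were lower. Acot3, among the 25, entered this test only through the PBS livers. Hepatocytes make a few RNAs in very large amounts, and the median gene stood at -0.71 on the log2 scale. After median-ratio scaling, which brings that median to -0.02, 29 members were higher and 1 was lower, with 5838 genes higher and 5779 lower. After quantile scaling, 29 members were higher and 2 lower, with 6127 genes higher and 5849 lower. 

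**Figure D1:**
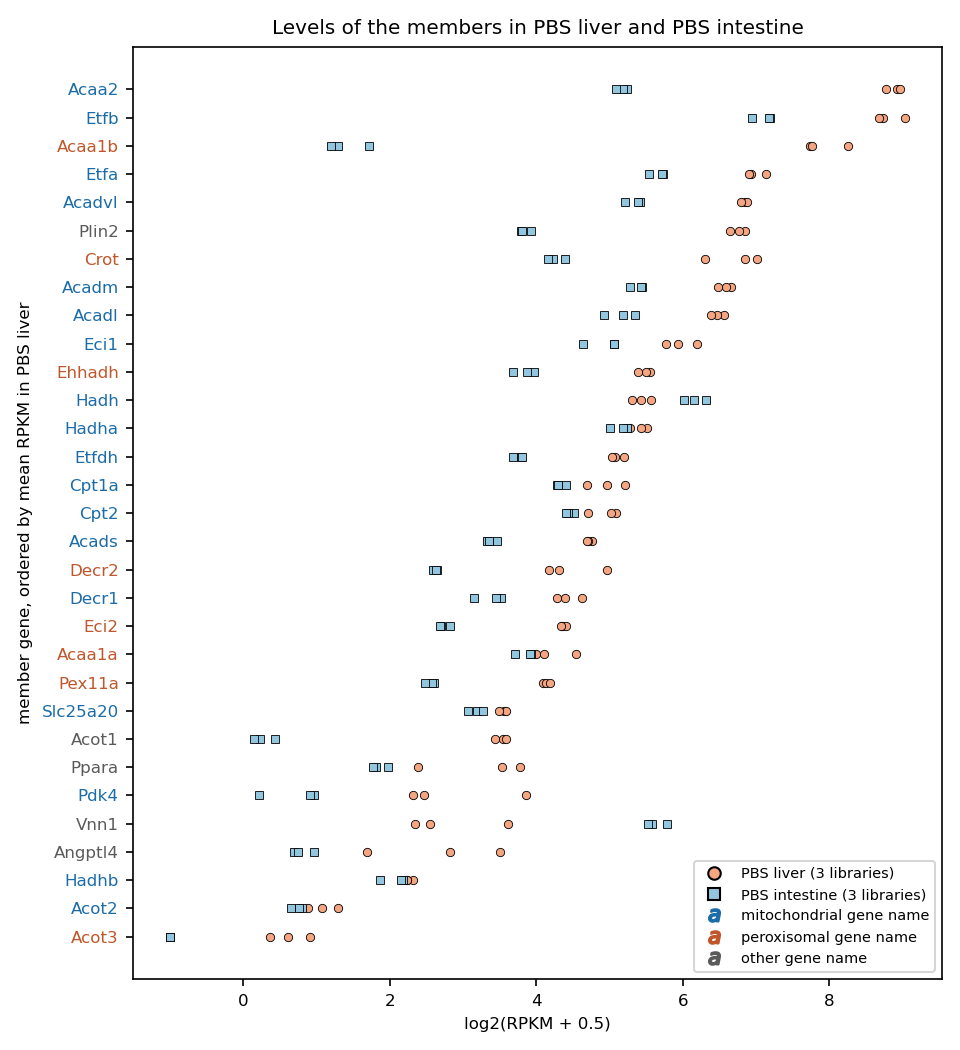
Level of each of the 31 members as log2(RPKM + 0.5) in PBS liver (circles) and PBS intestine (squares), with a point for each of 3 libraries and gene names coloured by compartment. Circles lie to the right of squares for all members except Hadh and Vnn1, and the gap is widest for Acaa1b.

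The most abundant members in PBS liver were Acaa2, the mitochondrial thiolase of the last step, and Etfb, the smaller subunit of the electron transfer flavoprotein. They averaged 473 ± 32.3 and 452 ± 62.1 RPKM (SD, n = 3 each), which do not differ beyond their spread. Of the Etfb stretches of 75 bases, 39.6% occur in the annotated gene Gm45233 as well, so part of its reads is uncertain. Acaa1b, the inducible peroxisomal thiolase of rodents, followed at 245 ± 52.1 RPKM. Then came Etfa, the larger flavoprotein subunit, at 127 ± 11.5, and Acadvl, the very long chain acyl-CoA dehydrogenase, at 114 ± 3.63 RPKM. Plin2, which coats lipid droplets, and Crot, the carnitine octanoyltransferase that exports shortened chains from peroxisomes, stood at 107 ± 7.43 and 107 ± 25.6 RPKM. From Etfa to Crot, the mean ± SD intervals of neighbours in this order overlapped. The lowest members in PBS liver were Acot2 at 1.63 ± 0.304 and Acot3 at 1.06 ± 0.299 RPKM, the mitochondrial and peroxisomal acyl-CoA thioesterases.

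In PBS intestine the order was different. Etfb led at 137 ± 12.5 RPKM, followed by Hadh, the dehydrogenase for short 3-hydroxyacyl chains, at 71.1 ± 7.45 RPKM. Etfa at 50.1 ± 3.65 and Vnn1, the membrane-bound pantetheinase known as vanin, at 49.0 ± 4.80 RPKM came next and did not differ beyond their spread. Vnn1 was 7.21 ± 3.90 RPKM in PBS liver, a log2 fold change of -2.79 (SE 0.32, adjusted p = 0.00018, limma), and passed as lower there. Hadh also passed as lower in liver, at 42.8 ± 3.87 RPKM (log2 fold change -0.73, SE 0.12, adjusted p = 0.00108), but stood at 0.08 (adjusted p = 0.669) after median-ratio scaling.

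The thiolase pair showed the widest divergence among related members. Acaa1b averaged 112 times as much in PBS liver as in PBS intestine, 245 RPKM in PBS liver against 2.18 RPKM in PBS intestine, whereas Acaa1a, its constitutive partner, had 18.3 ± 3.96 RPKM in PBS liver and 13.9 ± 1.23 RPKM in PBS intestine and did not pass (log2 fold change 0.36, SE 0.16, adjusted p = 0.0797). Acaa1b thus stood at 13.4 times the level of Acaa1a in PBS liver and at 0.156 times in PBS intestine. Of the 75-base stretches of the Acaa1b transcripts, 24.4% also occur in Acaa1a and 9.5% of those of Acaa1a occur in Acaa1b, so some reads of the pair could have been dropped or exchanged. Among the thioesterases, Acot1, the cytosolic form, averaged 11.0 ± 0.626 RPKM in PBS liver and 0.707 ± 0.127 RPKM in PBS intestine, and Acot3 had no read in any PBS intestine. With a floor of 3 reads in each intestinal library, Acot3 was at least 27.9-fold higher in PBS liver. The members that did not pass between the tissues were Acot2, Acaa1a and both subunits of the trifunctional protein, Hadha and Hadhb.

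Hadha and Hadhb encode the partner subunits of the trifunctional protein, which carries out the last steps of the cycle on long chains. Their RPKM were far apart in every group. The mean of Hadha stood at 8.87 times that of Hadhb in LCWE livers and 9.78 times in PBS livers, and at 9.25 times in LCWE intestines and 9.39 times in PBS intestines. The table's gene lengths behind RPKM are 8730 bases for Hadha and 6595 bases for Hadhb. Of the Hadhb stretches of 75 bases, 16.4% also occur in Gm13910. The part of shared sequence in the level of Hadhb was not tested.

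In liver, LCWE went with lower levels of nearly the whole set, but by small amounts. The mean of 28 of the 31 members lay below that of PBS livers, against 39.8% of the 14404 genes tested, and the median member stood at -0.21 on the log2 scale, against 0.06 for all genes. Of all genes, 0.646% passed as lower and 3.39% as higher. Among the members Acot3 passed, but it entered the test only through the PBS livers, where it is high, so its pass is not read against that share, and 0 of the other 30 members passed. For 13 members, 41.9%, every LCWE liver lay below every PBS liver, as was so for 8.84% of all genes, and for 0 members did every LCWE liver lie above, where 18.7% of all genes did. Both the 28 and the 13 include Acot3, for which the filter fixed that outcome in advance. Without PBS replicate 2, 24 members lay below and 16 did not overlap, against 46.6% and 19.5% of all genes. Without LCWE replicate 4, 28 lay below and 18 did not overlap, against 42.1% and 14.7%. Scaling moved the share of all genes below PBS more than that of the members. After quantile scaling 27 members lay below and 14 did not overlap, against 54.4% and 14.8% of all genes. After median-ratio scaling these were 28 and 16 members, against 53.5% and 14.97%.

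The lower levels in liver stood beside higher markers of macrophages and neutrophils. All 6 macrophage markers lay above PBS and 4 of them, Cd68, Csf1r, Marco and Cd5l, passed, with a summed level of 367 to 607 RPKM in LCWE livers and 159 to 204 RPKM in PBS livers. Of the 6 neutrophil markers, 4 were tested and 3, S100a8, S100a9 and Csf3r, passed, with sums of 17.1 to 38.8 RPKM in LCWE livers and 1.52 to 4.37 RPKM in PBS livers. Of the 6 T and B cell markers, 1 was tested, Cd3g, and it passed as higher, with sums of 1.39 to 2.35 RPKM in LCWE livers and 0.731 to 0.901 RPKM in PBS livers. S100a8, Csf3r and Cd3g entered the test only through the LCWE livers. None of these markers was at 0 throughout a liver group. Of 8 hepatocyte markers, 4 lay above and 4 below PBS and none passed, and their sum was 32751 to 35796 RPKM in LCWE livers and 38694 to 54469 RPKM in PBS livers. The part of these cell types in the members' levels was not tested. In bulk tissue, fewer cells of a type and less RNA per cell cannot be told apart.

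**Figure D2:**
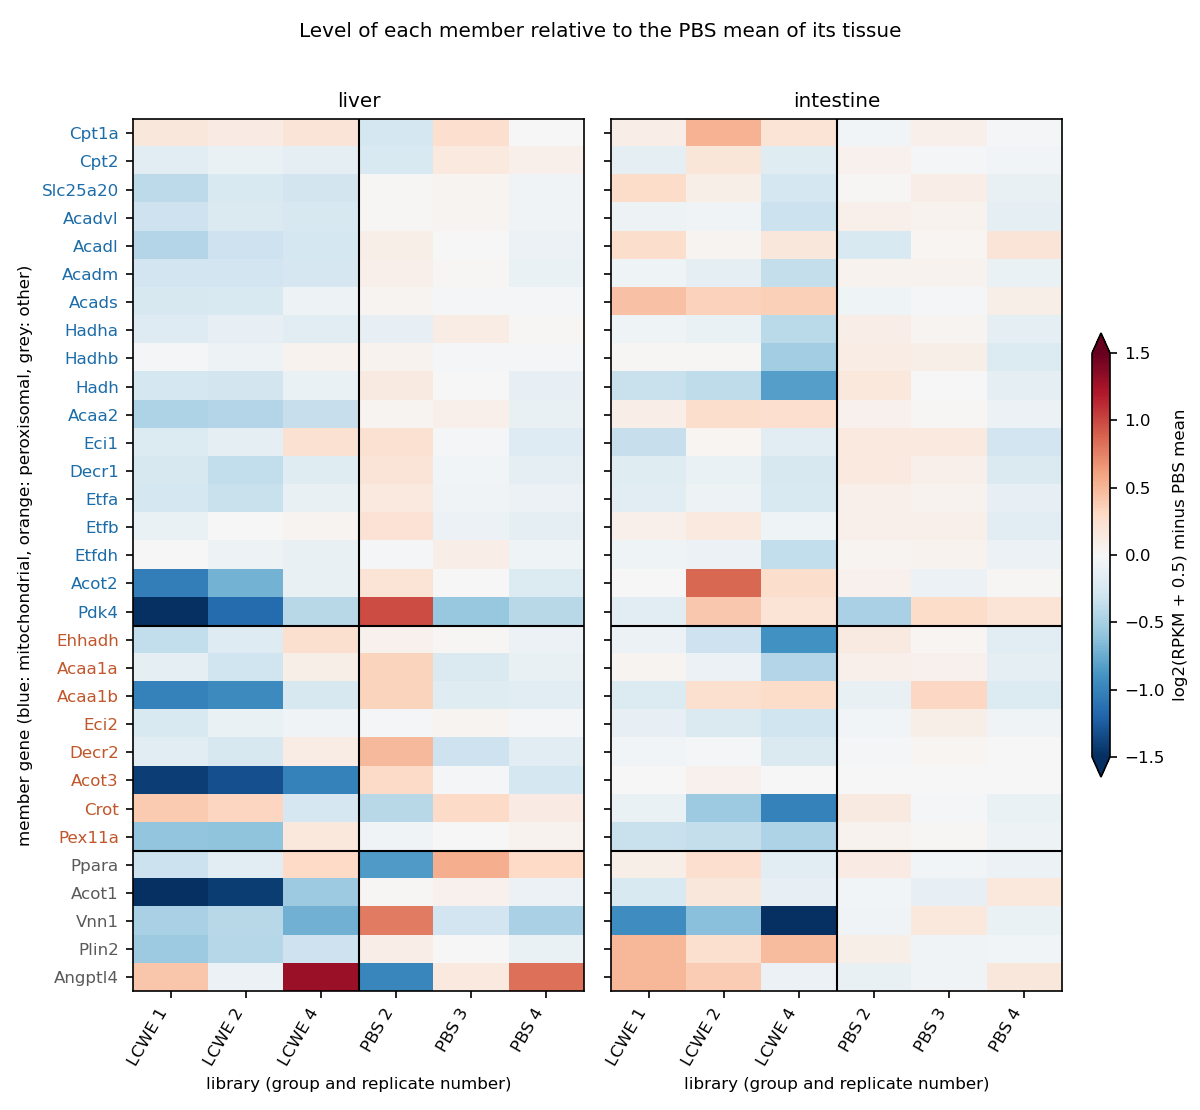
Deviation of every member from the PBS mean of its tissue, on the log2(RPKM + 0.5) scale, in each of the 12 libraries (red above, blue below, colour limits at 1.5). LCWE livers are blue for most members, least so in replicate 4, and among LCWE intestines replicate 4 is the lowest for 18 of 31 members.

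In liver the most negative log2 fold changes of the 31 members were those of Acot3 and Acot1, both thioesterases. Acot3, which releases free fatty acids from acyl-CoA in peroxisomes, had 0.0810, 0.120 and 0.266 RPKM in LCWE livers, against 1.38, 1.03 and 0.782 RPKM in PBS livers. These rest on 8, 14 and 24 reads in LCWE livers and 160, 96 and 80 reads in PBS livers, and the groups are far apart. The mean in LCWE livers was 0.146 times that in PBS livers, while the fitted log2 fold change, damped by the added 0.5, was -1.25 (SE 0.19, adjusted p = 0.0210, limma). Acot3 entered the test only through the 3 PBS livers, each above 0.5 RPKM, so that a gene kept this way had to differ. With no filter on low values its adjusted p was 0.0492. Leaving out LCWE replicate 1 or 2 gave an adjusted p of 0.103 or 0.110, and leaving out any PBS library removed Acot3 from the test. Of its 75-base stretches, 18.1% occur in other genes, among them Acot5.

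Acot1 encodes the cytosolic thioesterase. It had 2.92, 3.77 and 7.37 RPKM in LCWE livers, against 11.2, 11.5 and 10.3 RPKM in PBS livers. Every LCWE liver was below every PBS liver, with replicate 4 nearest to them. Acot1 missed the threshold (log2 fold change -1.24, SE 0.29, adjusted p = 0.0697). Without LCWE replicate 4 its adjusted p was 0.0200. Acot2, the mitochondrial thioesterase, had 0.528, 0.791 and 1.45 RPKM in LCWE livers, against 1.95, 1.60 and 1.34 RPKM in PBS livers. Those of Acot2 overlap, with LCWE replicate 4 above PBS replicate 4, and it did not pass (log2 fold change -0.62, adjusted p = 0.244). Acot1 and Acot2 share sequence, with 11.2% of the Acot1 stretches of 75 bases found in Acot2 and 20.5% of those of Acot2 found in Acot1, so their reads may have been split. Acot4, a thioesterase gene outside the set that lies between Acot1 and Acot3, had 0.651, 1.16 and 1.41 RPKM in LCWE livers, against 1.64, 2.29 and 1.95 RPKM in PBS livers. Its groups did not overlap and it did not pass (log2 fold change -0.67, SE 0.21, adjusted p = 0.156).

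**Figure D3:**
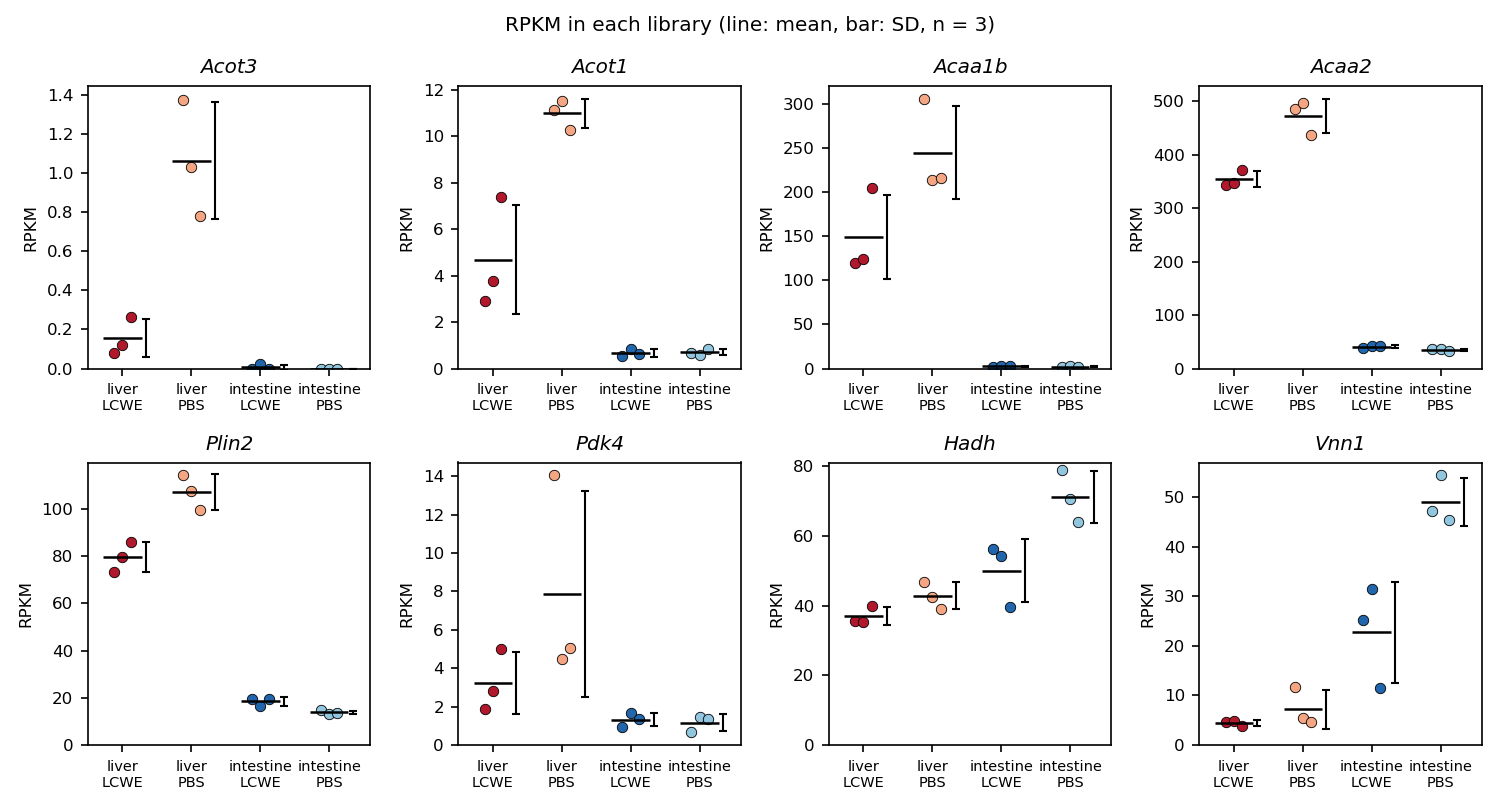
RPKM of 8 members in each library of the 4 groups (points), with the mean (line) and SD (bar) of 3 libraries; each panel has its own axis from 0. Acot3, Acot1, Acaa1b, Acaa2 and Plin2 show LCWE livers below PBS livers without overlap, whereas Pdk4, Hadh and Vnn1 overlap in liver.

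The carnitine shuttle was mixed. Slc25a20, the carrier that exchanges acylcarnitine for carnitine across the inner membrane, had 8.37, 9.42 and 9.10 RPKM in LCWE livers, against 11.3, 11.5 and 10.7 RPKM in PBS livers. No LCWE liver reached the PBS range (log2 fold change -0.30, SE 0.10, adjusted p = 0.155). Cpt1a, the outer membrane transferase that controls entry of long chains, had 34.3, 33.1 and 35.0 RPKM in LCWE livers, against 25.4, 36.5 and 30.6 RPKM in PBS livers. Its PBS livers spanned the LCWE range, and it was the single mitochondrial member with a mean above PBS (log2 fold change 0.16, adjusted p = 0.599). Cpt2, the inner membrane transferase, averaged 27.5 ± 0.558 RPKM in LCWE livers and 30.4 ± 4.18 RPKM in PBS livers.

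All 4 acyl-CoA dehydrogenases of the set, which catalyse the first step for chains of different length, lay below PBS in liver with no overlap. Outside the set, the groups of Acad8, Acad9, Acad10, Acad11 and Acadsb overlapped in liver. Acadl, the long chain enzyme, had 65.0, 71.2 and 73.4 RPKM in LCWE livers, against 93.8, 88.2 and 82.7 RPKM in PBS livers. The gap was a log2 fold change of -0.33 (SE 0.10, adjusted p = 0.126). Acadm, the medium chain enzyme, averaged 78.0 ± 1.10 RPKM in LCWE livers and 94.7 ± 6.00 RPKM in PBS livers. Acadvl averaged 95.6 ± 3.18 RPKM in LCWE livers and 114 ± 3.63 RPKM in PBS livers. Acads, the short chain enzyme, averaged 22.7 ± 1.44 RPKM in LCWE livers and 25.8 ± 0.723 RPKM in PBS livers. None of the 4 passed, with adjusted p from 0.126 to 0.354. Acadvl shares 19.5% of its stretches with the overlapping gene Dvl2, and no source says whether the libraries were stranded, so those reads cannot be told apart.

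Of the later steps, Acaa2 lay lowest relative to PBS. It had 344, 347 and 371 RPKM in LCWE livers, against 485, 497 and 436 RPKM in PBS livers. All LCWE livers were below all PBS livers, at a log2 fold change of -0.42 (SE 0.10, adjusted p = 0.0729). Hadh averaged 36.9 ± 2.56 RPKM in LCWE livers and 42.8 ± 3.87 RPKM in PBS livers, with overlap. Hadha averaged 37.6 ± 0.923 RPKM in LCWE livers and 42.0 ± 3.44 RPKM in PBS livers, and Hadhb 4.24 ± 0.211 RPKM in LCWE livers and 4.29 ± 0.154 RPKM in PBS livers, and these overlapped too. Etfa averaged 107 ± 8.64 RPKM in LCWE livers and 127 ± 11.5 RPKM in PBS livers without overlap. Decr1, the dienoyl-CoA reductase for unsaturated chains, was likewise without overlap at 17.5 ± 1.17 RPKM in LCWE livers and 21.2 ± 2.68 RPKM in PBS livers. Etfb, Etfdh, the oxidoreductase that passes the flavoprotein's electrons to ubiquinone, and Eci1, an enoyl-CoA isomerase, had log2 fold changes between -0.06 and -0.02, and their groups overlapped.

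Pdk4, the kinase that shuts down pyruvate dehydrogenase when fat is burned, varied widely between libraries. It had 1.86, 2.82 and 5.02 RPKM in LCWE livers, against 14.0, 4.48 and 5.03 RPKM in PBS livers. PBS replicate 2 was far above the other PBS livers, and LCWE replicate 4 lay within the PBS range. The log2 fold change of -1.07 (SE 0.48) did not pass (adjusted p = 0.293). The authors' deposited table lists Pdk4 in liver with a log2 fold change of -1.32 and a false discovery rate of 0.132.

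Among the peroxisomal members of liver, Acaa1b was the other large difference. It had 119, 124 and 204 RPKM in LCWE livers, against 305, 213 and 216 RPKM in PBS livers. LCWE replicate 4 came close to the lowest PBS liver but did not reach it (log2 fold change -0.74, SE 0.25, adjusted p = 0.169). Acaa1a had 16.7 ± 2.29 RPKM in LCWE livers and 18.3 ± 3.96 RPKM in PBS livers, so that Acaa1b stood at 8.96 times the level of Acaa1a in LCWE livers and 13.4 times in PBS livers. Pex11a, which promotes division of peroxisomes, had 11.2, 11.1 and 19.2 RPKM in LCWE livers, against 16.5, 17.0 and 17.7 RPKM in PBS livers. LCWE replicates 1 and 2 were below all PBS livers and replicate 4 was above them (log2 fold change -0.34, adjusted p = 0.454). The log2 fold change of Pex11a was -0.59 when LCWE replicate 4 was left out (adjusted p = 0.0663), and -0.22 or -0.21 when replicate 1 or 2 was.

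The rest of the peroxisomal cycle moved little in liver. Eci2, a peroxisomal isomerase, averaged 18.3 ± 1.22 RPKM in LCWE livers and 20.1 ± 0.532 RPKM in PBS livers without overlap (log2 fold change -0.13, adjusted p = 0.528). Ehhadh, the peroxisomal bifunctional enzyme, averaged 41.6 ± 9.56 RPKM in LCWE livers and 44.1 ± 2.44 RPKM in PBS livers. Decr2, the peroxisomal dienoyl-CoA reductase, averaged 20.6 ± 2.76 RPKM in LCWE livers and 22.6 ± 7.17 RPKM in PBS livers. Crot was the single peroxisomal member with a mean above PBS, at 119 ± 27.0 RPKM in LCWE livers and 107 ± 25.6 RPKM in PBS livers, well within the spread.

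Of the members outside both organelles, the receptor gene Ppara had 7.01, 7.81 and 11.0 RPKM in LCWE livers, against 4.71, 13.2 and 11.1 RPKM in PBS livers. Its groups overlapped, and PBS replicate 2 was the lowest of all 6 livers (log2 fold change -0.06, SE 0.37, adjusted p = 0.949). Plin2 had 73.1, 79.6 and 85.9 RPKM in LCWE livers, against 114, 108 and 99.4 RPKM in PBS livers. All LCWE livers of Plin2 were below all PBS livers, at a log2 fold change of -0.43 (SE 0.11, adjusted p = 0.0770). Vnn1 had 4.58, 4.86 and 3.82 RPKM in LCWE livers, against 11.7, 5.36 and 4.57 RPKM in PBS livers, where 1 high PBS library sets the mean apart (log2 fold change -0.54, adjusted p = 0.437). Angptl4, the secreted inhibitor of lipoprotein lipase, averaged 9.52 ± 4.97 RPKM in LCWE livers and 6.69 ± 4.03 RPKM in PBS livers and was the third member with a mean above PBS (log2 fold change 0.54, adjusted p = 0.626).

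**Figure D4:**
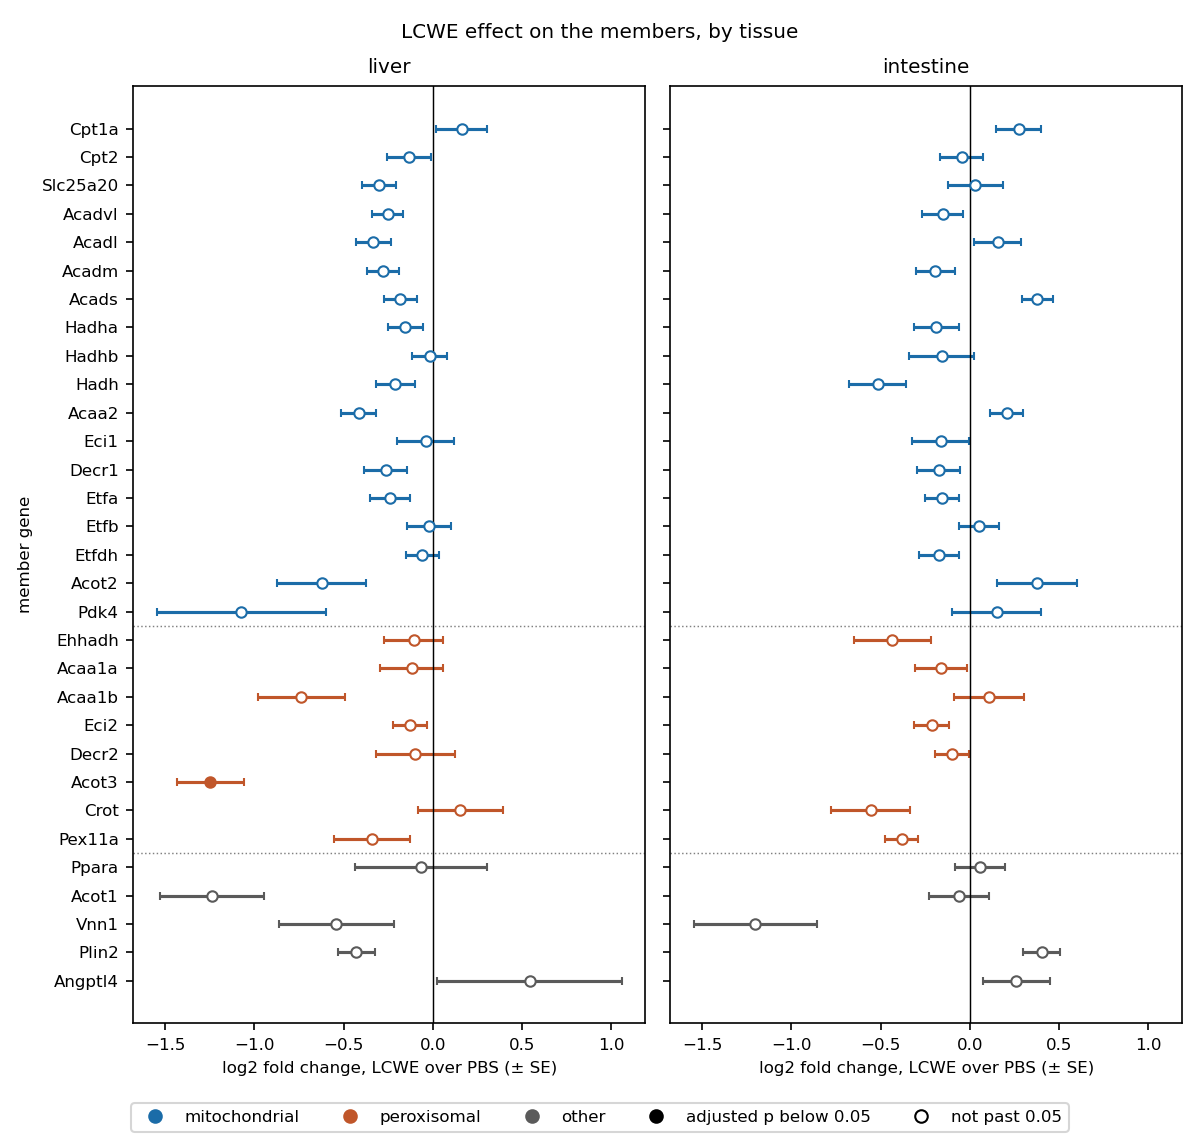
Log2 fold change of LCWE over PBS with its SE (bars, n = 3 libraries a group) for every member in liver (left) and intestine (right), coloured by compartment; a filled point passed the limma test. In liver 28 of 31 points lie left of 0 and Acot3 is filled, and in the intestine 18 of 30 lie left of 0 and none is filled.

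In the small intestine no member passed the limma test, and neither did any of the 17510 genes tested (0% higher, 0% lower). At an unadjusted p below 0.05 there were 6 members and 2202 of all genes, and limma voom on recovered reads also called 0 members. Acot3 was not tested, with 0, 2 and 0 reads in LCWE intestines and 0 in each PBS intestine. Of the other 30 members, 18 had a mean below PBS and 12 above, where 31.02% of all genes lay below. After quantile scaling 21 of the 31 members lay below, against 43.2% of all genes, and after median-ratio scaling 21, against 48.7%. For 6 members every LCWE intestine lay below every PBS intestine, against 6.15% of all genes, and for 4 members every one lay above, against 13.2%. Without PBS replicate 4 the 6 became 16, against 9.73% of all genes. Without LCWE replicate 4 there were again 6, against 8.05%. Quantile and median-ratio scaling each gave 5, against 8.23% and 8.81%.

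The intestinal members that lay lower did so beside lower levels of several markers of the absorptive epithelium and of fat. Of 7 enterocyte markers, 6 lay below PBS and 4 did not overlap, none at 0, with a summed level of 1287 to 4917 RPKM in LCWE intestines and 8123 to 17441 RPKM in PBS intestines. The largest parts of the PBS sum were Fabp2 and Apoa4, with means of 8120 and 3738 RPKM. The groups of Vil1 and Sis overlapped, and Cdx2 averaged 18.4 RPKM in LCWE and in PBS intestines. Of the 6 fat cell markers, 3 were tested and lay below PBS, and their sum over all 6 was 4.44 to 5.33 RPKM in LCWE intestines and 6.87 to 62.4 RPKM in PBS intestines. The part of either in the members' levels was not tested.

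Of the mitochondrial members in the intestine, Acads had the smallest p and lay above PBS. It had 13.6, 12.7 and 12.8 RPKM in LCWE intestines, against 9.48, 9.73 and 10.5 RPKM in PBS intestines. The groups of Acads did not overlap (log2 fold change 0.38, SE 0.09, adjusted p = 0.235). Hadh lay below, with 56.1, 54.4 and 39.6 RPKM in LCWE intestines, against 78.8, 70.6 and 64.0 RPKM in PBS intestines. Its lowest value, in LCWE replicate 4, was well under the others, and no LCWE intestine reached the PBS range (log2 fold change -0.52, SE 0.16, adjusted p = 0.310). Acaa2 had 38.0, 42.5 and 42.4 RPKM in LCWE intestines, against 37.1, 35.8 and 33.4 RPKM in PBS intestines, again without overlap but above PBS (log2 fold change 0.21, adjusted p = 0.417). Cpt1a was the third mitochondrial member above PBS without overlap, at 24.0 ± 3.81 RPKM in LCWE intestines and 19.6 ± 0.917 RPKM in PBS intestines. The other 14 had log2 fold changes from -0.19, for Acadm and Hadha, to 0.38, for Acot2.

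Of the 7 peroxisomal members tested in the intestine, 6 had a mean below PBS and 4 of them did not overlap, against 31.02% and 6.15% of all genes. The 4 were 3 after quantile scaling and 2 after median-ratio scaling, against 8.23% and 8.81% of all genes. Without PBS replicate 4 there were 6 peroxisomal and 9 mitochondrial members below without overlap, where all PBS libraries gave 4 and 1. Pex11a had 4.14, 4.07 and 3.76 RPKM in LCWE intestines, against 5.55, 5.44 and 5.06 RPKM in PBS intestines. The groups of Pex11a were apart (log2 fold change -0.38, SE 0.09, adjusted p = 0.240). Crot had 17.2, 12.5 and 8.96 RPKM in LCWE intestines, against 20.4, 18.2 and 17.3 RPKM in PBS intestines. LCWE replicate 1 nearly reached the lowest PBS intestine, and replicate 4 was the lowest (log2 fold change -0.56, SE 0.22, adjusted p = 0.385). Eci2 had 5.61, 5.24 and 4.89 RPKM in LCWE intestines, against 5.98, 6.58 and 5.92 RPKM in PBS intestines (log2 fold change -0.21, adjusted p = 0.429). Decr2 averaged 5.26 ± 0.408 RPKM in LCWE intestines and 5.65 ± 0.129 RPKM in PBS intestines, and Ehhadh 10.4 ± 2.99 RPKM in LCWE intestines and 13.9 ± 1.46 RPKM in PBS intestines, the groups of Ehhadh overlapping. Acaa1b was the exception, at 2.38 ± 0.505 RPKM in LCWE intestines and 2.18 ± 0.531 RPKM in PBS intestines.

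Of the members outside both organelles, Vnn1 had the largest intestinal difference, with 25.3, 31.4 and 11.5 RPKM in LCWE intestines, against 47.2, 54.5 and 45.4 RPKM in PBS intestines. All LCWE values of Vnn1 were below the PBS values and replicate 4 was the lowest (log2 fold change -1.20, SE 0.34, adjusted p = 0.285). Plin2 had 19.7, 16.5 and 19.3 RPKM in LCWE intestines, against 14.7, 13.3 and 13.4 RPKM in PBS intestines. Here LCWE lay above PBS without overlap (log2 fold change 0.40, SE 0.10, adjusted p = 0.245). Angptl4 had 1.96, 1.75 and 1.13 RPKM in LCWE intestines, against 1.11, 1.17 and 1.46 RPKM in PBS intestines, with overlap (log2 fold change 0.26, adjusted p = 0.537). Ppara had 3.34, 3.82 and 2.72 RPKM in LCWE intestines, against 3.43, 3.02 and 2.91 RPKM in PBS intestines, also with overlap. Acot1 averaged 0.661 ± 0.169 RPKM in LCWE intestines and 0.707 ± 0.127 RPKM in PBS intestines. Acaa1a, of the peroxisomal set, averaged 12.5 ± 2.14 RPKM in LCWE intestines and 13.9 ± 1.23 RPKM in PBS intestines.

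The LCWE effect in liver minus that in the intestine was tested in a fit over all 12 libraries. It passed for 2 members, both more negative in liver. Of the 18619 genes tested, 0.204% passed in that direction and 0.532% in the other. Plin2 had a difference of -0.83 on the log2 scale (SE 0.15, adjusted p = 0.0305, limma), its LCWE effect being -0.43 in liver and 0.40 in the intestine. Acot3 had a difference of -1.27 (SE 0.22, adjusted p = 0.0279), which is in effect its liver change, since the intestine had almost no Acot3 reads. Acot3 entered this fit too only through the PBS livers, where it is high, so its pass is not read against the 0.204%. Its adjusted p with no filter was 0.0308. The next members were Acaa2, with a difference of -0.62 (SE 0.13, adjusted p = 0.0564), and Acads, with -0.56 (SE 0.12, adjusted p = 0.0617), and neither passed. Crot, at 0.71 (SE 0.35, adjusted p = 0.445), and Acaa1b, at -0.84 (SE 0.33, adjusted p = 0.305), did not pass either. The call of Plin2 was lost with quantile scaling (adjusted p = 0.0527) and with median-ratio scaling (0.0614), and that of Acot3 with voom on recovered reads (0.191). When each library was left out in turn, Plin2 lost its call in 6 of 12 fits, with adjusted p from 0.0300 to 0.102. Those were the fits without LCWE liver 1 or 2, PBS liver 3, LCWE intestine 4, or PBS intestine 2 or 3. Acot3 lost its call in 6 of the 9 fits that still tested it, with adjusted p from 0.0257 to 0.0839. Those were the fits without LCWE liver 1 or 2, LCWE intestine 2 or 4, or PBS intestine 2 or 3.

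Mitochondrial and peroxisomal members were compared through the median of each compartment in each library. In liver the mitochondrial median of LCWE libraries was 0.19 below that of PBS libraries on the log2 scale (difference -0.19, SD 0.07 over LCWE and 0.08 over PBS libraries, n = 3 each). The peroxisomal difference was -0.21, with SDs of 0.18 and 0.14. LCWE livers 1, 2 and 4 stood at -0.25, -0.23 and -0.12 for mitochondrial members, all below the PBS livers at 0.07, -0.0027 and -0.09. For peroxisomal members LCWE livers stood at -0.30, -0.27 and 0.02 and PBS livers at 0.18, -0.01 and -0.10, so that LCWE replicate 4 lay within the PBS range. Without LCWE replicate 4 the differences were -0.23 for mitochondrial and -0.31 for peroxisomal members, and without PBS replicate 2 they were -0.17 and -0.13. Members below PBS without overlap were 8 of 18 mitochondrial and 3 of 8 peroxisomal, against 8.84% of all genes. The 3 were Acaa1b, Eci2 and Acot3, and for Acot3 the filter fixed this in advance. They were 9 and 3 after quantile scaling and 11 and 3 after median-ratio scaling, against 14.8% and 14.97%.

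In the intestine the mitochondrial difference was -0.08 (SDs 0.12 over LCWE and 0.10 over PBS libraries), within the spread of the libraries. The peroxisomal difference was -0.19 (SDs 0.14 and 0.07), with LCWE intestines at -0.10, -0.15 and -0.37 and PBS intestines at 0.02, 0.03 and -0.09. All LCWE intestines thus lay below all PBS intestines for peroxisomal members, LCWE replicate 1 narrowly so, at -0.095 against -0.087 in PBS replicate 4. The 8 members include Acot3, with 0, 2 and 0 reads in LCWE intestines and 0 in each PBS intestine. So narrow a gap is not read as a separation. Without LCWE replicate 4 the peroxisomal difference was -0.11, and the mitochondrial difference was -0.01. After median-ratio scaling the mitochondrial difference was -0.19 and the peroxisomal one -0.30, and after quantile scaling they were -0.10 and -0.26. The difference between the compartments within a tissue was not tested.

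**Figure D5:**
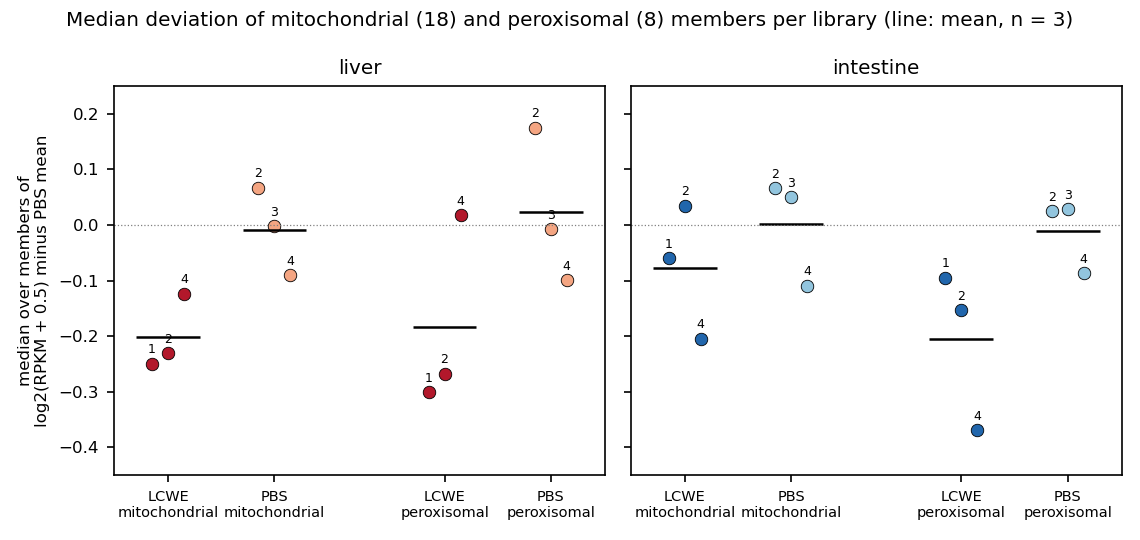
Median over 18 mitochondrial or 8 peroxisomal members of the deviation from the PBS mean on the log2(RPKM + 0.5) scale, a point for each library numbered by replicate, with the mean of 3 libraries as a line. In liver both compartments lie lower in LCWE libraries, by 0.19 and 0.21, and in the intestine the peroxisomal points reach -0.37 in LCWE replicate 4.

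Genes of the same pathways outside the set were counted in liver as well, where 39.8% of all genes lay below PBS, 8.84% did so without overlap and the median was 0.06. Of 16 genes grouped as other mitochondrial oxidation genes, 15 were tested, 12 lay below PBS, 0 of them without overlap, and 0 passed (median -0.15). Among the 15, 1 lay above PBS without overlap. The grouping is loose, as it holds Nudt7, Slc22a5 and Acacb, which are not enzymes of the mitochondrial cycle. All 4 tested genes of ketone body synthesis lay below PBS, 3 without overlap, and 0 passed (median -0.30), and the summed level of the 5 listed was 349.6 to 399 RPKM in LCWE livers and 436 to 475 RPKM in PBS livers. Of 18 tested other peroxisomal oxidation genes, 13 lay below PBS, 8 without overlap, and 1 passed (median -0.21). It was Hacl1, the lyase of alpha oxidation, with 48.2, 45.8 and 55.5 RPKM in LCWE livers, against 79.8, 91.2 and 79.0 RPKM in PBS livers (log2 fold change -0.74, SE 0.11, adjusted p = 0.0226). Of 16 genes of peroxisome assembly and catalase, 10 lay below PBS, 6 without overlap, and 0 passed (median -0.07). In that list 2 lay above PBS without overlap.

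Of 21 tested further PPAR alpha targets, 15 lay below PBS in liver, 4 without overlap, and 6 above, 3 without overlap. Of all genes, 18.7% lay above without overlap. In this list 1 gene passed as lower and 1 as higher. Fgf21, the fasting hormone secreted by hepatocytes, had 0.0554, 0.0936 and 0.121 RPKM in LCWE livers, against 1.53, 0.939 and 2.33 RPKM in PBS livers (log2 fold change -1.78, SE 0.24, adjusted p = 0.0159). Like Acot3, it entered the test only through the PBS livers. Ucp2, an uncoupling protein of the inner membrane, averaged 3.36 ± 0.338 RPKM in LCWE livers and 1.77 ± 0.276 RPKM in PBS livers and did not overlap (log2 fold change 0.77, SE 0.14, adjusted p = 0.0347). Among 16 PPAR receptors, partners and coregulators, 11 lay above PBS, 3 without overlap, 5 lay below, 2 without overlap, and 0 passed.

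In the intestine 0 genes of these lists passed. There 13 of 17 tested other peroxisomal oxidation genes and 12 of 15 tested further targets lay below PBS, against 6 of 15 other mitochondrial oxidation genes and 31.02% of all genes. Without overlap, 5, 6 and 4 genes of these 3 lists lay below, against 6.15% of all genes, and 2, 0 and 2 above, against 13.2%. Of peroxisome assembly and catalase genes 10 of 16 lay below, 3 without overlap, and of ketone body synthesis 3 of 4, 0 without overlap. The difference between tissues passed for Hacl1 (-0.99, adjusted p = 0.0224) and Fgf21 (-1.82, adjusted p = 0.0224), both more negative in liver. Fgf21 entered that fit only through the PBS livers, where it is high. The difference also passed for Cd36, the fatty acid uptake receptor, at 1.51 (adjusted p = 0.0307), and Creb3l3, a liver and intestinal transcription factor of lipid metabolism, at 2.18 (adjusted p = 0.0360). Cd36 had 2.22, 2.57 and 2.43 RPKM in LCWE intestines, against 8.20, 5.91 and 6.56 RPKM in PBS intestines, while Creb3l3 had 19.6, 13.8 and 7.58 RPKM in LCWE intestines, against 77.4, 64.9 and 47.3 RPKM in PBS intestines. Neither passed within the intestine (adjusted p = 0.154 and 0.186).

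The authors' deposited table lists 797 genes for liver and 220 for the intestine, beside 34348 genes in the expression table. Being listed there does not mean a low false discovery rate: Cd36 and Creb3l3 are listed for the intestine at 0.469 and 0.479. The list holds 3 members in liver, among them Pdk4 at 0.132, and 0 in the intestine. In the authors' deposited table Acot3 has a log2 fold change of -2.71 with a false discovery rate of 0.00791, and Acot1 has -1.25 with 0.0260, in LCWE against PBS liver.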

How the data were processed

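Reads per gene reached the deposited table as RPKM, which per the file headers are given beside gene length and position. RPKM times length was divided by the smallest such value above 0 in each library. By this, 100% of the nonzero values were whole reads (tolerance 0.001). A scaling factor common to a whole library cancels in this check, so the check cannot show whether one was applied. The submitters' processing notes mention featureCounts, Subread 1.5.1, edgeR 3.12.1, Trimmomatic 0.36 and mm10 but no roles; no aligner is named in the sources used here. Of 16 library columns, 12 were matched to samples by name, and the other 4 match no sample and were not used. The authors' deposited differential table holds p-values, false discovery rates and log2 fold changes for the genes it lists and was used only where named; its 12 RPKM columns were not used.

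Groups come from the labels. Each tissue was fitted apart in R 4.3.3 with limma 3.58.1 (two-sided, eBayes with trend) on log2(RPKM + 0.5), which understates the change of low genes, and the tissue difference in 1 fit over 4 groups. With 3 libraries a group, the smallest two-sided p of an exact permutation test is 0.1. Correlations between libraries of a group were 0.966 to 0.990. Simulated data, with 200 genes changed, were used to test the code. The members, lists and tests were chosen with earlier results of these data known. Values per library are given for members that passed and, up to 3 in each compartment and tissue, those with the smallest p; Ppara in both tissues, and Pdk4, Cpt1a, Acot2 and the non-member Acot4 in liver, were added after their values were seen. Of each pathway list, genes that passed in a comparison with LCWE are named, as are immune markers that passed in liver.

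RefSeq start-site windows were matched by symbol for 27 of 31 members (not Acaa2, Decr1, Vnn1 or Angptl4). Shared sequence was counted as 75-base stretches of a gene's transcripts found in another gene. Results were recomputed with pseudocounts of 0.1 and 1, without a filter, with a filter at RPKM 1, by median-ratio and by quantile scaling, with voom on the recovered reads, with the replicate number as a block, in 1 fit over 4 groups and without each library.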

Additional observations from a re-analysis of the deposited data

Results flagged for a closer look

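The LCWE effect differed between liver and intestine for Plin2, the lipid droplet coat gene, by -0.83 on the log2 scale (liver minus intestine, limma). It was lower in all 3 LCWE livers than in any PBS liver and higher in all 3 LCWE intestines than in any PBS intestine. The adjusted p was 0.0305, and it ranged from 0.0280 to 0.107 over the alternatives.

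It also differed for Acot3, the peroxisomal thioesterase gene, by -1.27 (adjusted p = 0.0279, range 0.0257 to 0.191). All 3 LCWE livers were below all PBS livers, and the intestine had 2 reads in 1 of 6 libraries, so the difference is that of liver. Acot3 entered the test only through the PBS livers, where it is high, so it had to differ; with no filter on low values the adjusted p was 0.0308.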

How the results depend on the processing

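In liver, 1 member passed in the reported fit. The count was 0 with the filter at RPKM 1, which removes Acot3, and 0 with the replicate block, 2 with voom on recovered reads (Acot1 in addition, adjusted p = 0.0437) and 4 with 1 fit over the 4 groups, where Acot1 (0.0164), Acaa2 (0.0253) and Plin2 (0.0391) passed beside Acot3. Leaving out single libraries gave 0 to 2. The adjusted p of Acot3 in liver ranged from 0.00116 to 0.284, the highest under the replicate block. Over all genes, the 489 higher and 93 lower calls became 12 and 12 under the replicate block, 688 and 255 without PBS replicate 2, and 47 and 8 without LCWE replicate 2; after quantile scaling they were 347 and 128, and after median-ratio scaling 353 and 125.

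The 2 members with a tissue difference became 1 with the filter at RPKM 1, with quantile scaling, with median-ratio scaling and with voom, and 0 with the replicate block; leaving out single libraries gave 0 to 4. In the intestine 0 members passed under every alternative run, although 1 fit over the 4 groups called 78 genes higher and 135 lower. The mitochondrial difference moved to -0.30 in liver and -0.19 in the intestine after median-ratio scaling; the cause was not tested. Hadh, lower in PBS liver than in PBS intestine, stood at 0.082 after median-ratio scaling. Scaling moved the median of all genes in liver from 0.06 to -0.03 or -0.02, and in the intestine from 0.11 to 0.03 or 0.01.

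The members below PBS numbered 24 to 28 in liver and 16 to 19 in the intestine when single libraries were left out, and those below without overlap 14 to 18 in liver and 6 to 16 in the intestine, against 11.5% to 19.5% and 7.29% to 12.2% of all genes in the same fits and 8.84% and 6.15% with every library, alternatives chosen after seeing the data. LCWE and PBS share only 2 replicate numbers in a tissue. Same-numbered deviations correlated at -0.08 and -0.04 in liver, where differently numbered ones ran from -0.10 to 0.10. In the intestine they stood at 0.088 and 0.107, above the others at -0.16 to 0.087. Between the tissues, same-numbered LCWE libraries had 0.007 to 0.040, above the others at -0.038 to 0.004. For PBS libraries these were -0.053 to 0.082 and -0.074 to 0.043. Such small values do not settle whether the numbers pair samples. Depth limits Acot3, which rests on at most 24 reads in an LCWE liver. Each of these liver counts of members includes Acot3.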
